A study of Macaca mulatta with 6 samples.

Results

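The stem cell niche growth factors examined here are 8 secreted proteins that support spermatogonial stem cells (SSCs) or act around them in the testis: GDNF, FGF2, CSF1, KITLG, LIF, NRG1, FGF7 and HGF. They were taken by gene name from a count table of 17795 genes. Of the 8, 7 were found and KITLG was not analysed here, and all 7 passed the filter on low counts. The data are bulk RNA sequencing of rhesus monkey (Macaca mulatta) cells, labelled as testis and described in the study's methods as SSCs grown in gel droplets of basement membrane extract. The PDGF group holds 3 libraries of cultures given human platelet-derived growth factor, and the PDGFNO group holds 3 libraries of cultures free of it. In each group replicate 1 belongs to batch 1 and replicates 2 and 3 belong to batch 2. The donors of these libraries, their age and the length of culture are not given in the sources used here, nor is it said whether the replicates were separate cultures, so the p-values may measure only technical spread. The medium in the methods contained human GDNF, mouse LIF and human FGF2 as added proteins, and how the PDGF-free medium differed beyond PDGF is not described. The libraries report transcripts of the cells and not these added proteins.

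SSCs rest on the basement membrane of the seminiferous tubule and receive short-range signals from Sertoli, peritubular and interstitial cells. GDNF binds the co-receptor GFRA1 and the kinase RET and sustains self-renewal, FGF2 acts through FGF receptors, and FGF7 (keratinocyte growth factor) is a stromal ligand of the epithelial form of FGFR2. LIF acts through LIFR and the shared chain IL6ST (gp130), CSF1 through CSF1R, NRG1 through ERBB receptors, KITLG through KIT, and HGF, another stromal factor, through MET.

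Library totals ranged from 10593805 to 14102697 counts, and levels are given as CPM, that is, counts relative to the library total after TMM scaling. The labelled identity was checked with summed markers. Markers of undifferentiated spermatogonia (8 of 11 in the table) summed to 376 to 436 CPM in PDGF and 351 to 463 CPM in PDGFNO, with GFRA1, ZBTB16, SALL4 and PIWIL4 below the filter. Most of that sum came from UCHL1 (241 to 284 CPM in PDGF and 173 to 201 CPM in PDGFNO) and ID4 (127 to 135 CPM in PDGF and 148 to 176 CPM in PDGFNO), genes that other cell types also express, so the sum does not stand for the list. TSPAN33 had 3, 5 and 2 counts in PDGF and 29, 46 and 23 in PDGFNO, SALL4 had 0, 0 and 1 in PDGF and 4, 10 and 6 in PDGFNO, and FGFR3, described below, fell. Germ cell markers (7 of 10 in the table) summed to 26.5 to 39.1 CPM in PDGF and 211 to 351 CPM in PDGFNO, with STRA8 at 0. Nearly all of it was TNP1, a gene of late spermatids (25.2 to 38.4 CPM in PDGF and 205 to 346 CPM in PDGFNO), so the sum does not give the level of germ cells as a whole, and DDX4 was at 0.150 to 0.607 CPM in PDGF and 1.27 to 3.64 CPM in PDGFNO. Fibroblast or stroma markers (8 of 8 in the table) summed to 14109 to 19424 CPM in PDGF and 16970 to 19156 CPM in PDGFNO. Most of that sum came from COL1A1, COL1A2 and COL3A1, and its overlap between groups hides differences of single genes. COL3A1 was 2.09-fold higher in PDGFNO (edgeR adjusted p = 4.2e-04) and PDGFRA 1.48-fold (0.044). COL1A1 was 1.51-fold higher in PDGF, with overlapping groups (edgeR adjusted p = 0.25). Of the 8, 2 were lower with PDGF and 0 higher at an edgeR adjusted p under 0.05. The stroma sum was the largest marker sum in every library, while GFRA1, SALL4 and DDX4 were scarce. The markers therefore do not show these libraries to be mainly SSCs, although sums of different lists do not give shares of cells. Peritubular myoid markers (6 of 6 in the table) summed to 400 to 508 CPM in PDGF and 1014 to 1168 CPM in PDGFNO, and epithelial markers (5 of 6 in the table) to 35.5 to 51.9 CPM in PDGF and 87.2 to 122 CPM in PDGFNO. The myoid marker MYH11 overlapped between the groups (4.92 to 7.96 CPM in PDGF and 7.14 to 8.33 CPM in PDGFNO), and the other myoid markers did not. Most of the epithelial sum came from PAX8 (21.0 to 29.9 CPM in PDGF and 48.3 to 70.5 CPM in PDGFNO) and KRT18 (8.93 to 12.0 CPM in PDGF and 25.4 to 35.0 CPM in PDGFNO). Sertoli markers (5 of 9 in the table) summed to 111 to 143 CPM in PDGF and 93.6 to 145 CPM in PDGFNO, mostly GATA4 (107 to 139 CPM in PDGF and 87.9 to 139 CPM in PDGFNO), and Leydig markers (7 of 7 in the table, CYP11A1 at 0) to 265 to 333 CPM in PDGF and 232 to 269 CPM in PDGFNO, mostly STAR (256 to 321 CPM in PDGF and 215 to 254 CPM in PDGFNO). Endothelial markers (5 of 5 in the table) summed to 12.2 to 16.8 CPM in PDGF and 11.1 to 16.2 CPM in PDGFNO. Macrophage markers (5 of 6 in the table, PTPRC at 0) summed to 17.0 to 19.5 CPM in PDGF and 11.6 to 18.4 CPM in PDGFNO, and both T cell markers in the table, CD3E and CD8A, were at 0. Germ cell, myoid and epithelial sums were lower in every PDGF library, and their part in the results below was not tested. In bulk libraries, fewer cells of a type and less RNA per cell cannot be told apart.

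The comparison asked whether transcripts of the niche factors differed between cultures with and without PDGF. LIF rose 12.4-fold, FGF7 rose 2.47-fold and HGF rose 1.99-fold with PDGF, whereas NRG1 fell and was 2.03-fold higher in PDGFNO. FGF2, CSF1 and GDNF did not pass the test. A gene was called at a Benjamini-Hochberg adjusted p under 0.05 in edgeR's quasi-likelihood test over 11539 genes, and 7.61% of all genes were called higher and 10.7% lower, or 18.3% in either direction. Of the 7 factors, 3 were called higher and 1 lower. The CPM ranges of the groups did not overlap for 6 of the 7 factors, 4 higher and 2 lower, while this held for 37.6% of all genes, 18.2% higher and 19.3% lower. The median log2 fold change, PDGF over PDGFNO, was 0.61 over the 7 factors and 0.02 over all genes. The factors and the gene lists below were chosen with earlier results of these data known. Their counts and medians beside those of all genes are thus a description only.

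**Figure D1:**
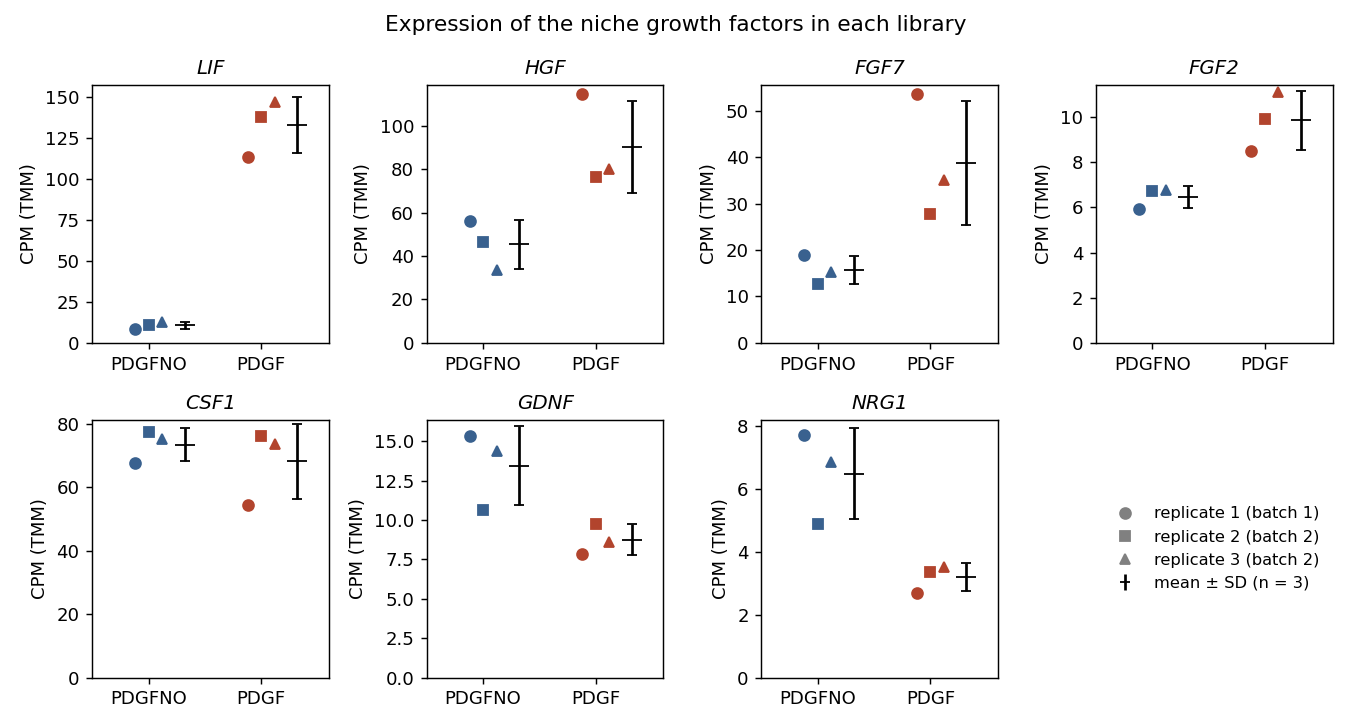
Level of each niche factor in CPM after TMM scaling (vertical axes, each from 0) in the 3 PDGFNO and 3 PDGF libraries, with a point per library, shapes for replicates, and the mean ± SD (n = 3) in black. The LIF points lie at 113 to 147 CPM in PDGF and 8.54 to 12.8 CPM in PDGFNO, and CSF1 is the factor whose groups overlap.

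LIF, a cytokine of the IL-6 family that activates STAT3, was at 113, 138 and 147 CPM in PDGF replicates 1, 2 and 3. In PDGFNO replicates 1, 2 and 3 it was at 8.54, 10.9 and 12.8 CPM. Every PDGF library lay far above every PDGFNO library, and replicate 1 was the lowest of each group. LIF averaged 133 ± 17.3 CPM in PDGF and 10.8 ± 2.15 CPM in PDGFNO (SD, n = 3 each). The log2 fold change was 3.63 (SE 0.21, adjusted p = 5.7e-05 in edgeR), which placed LIF at rank 20 from the top of 11539 genes. Within batches the log2 difference was 3.73 in batch 1 and 3.58 in batch 2, so the rise was seen in each. LIF lies at chr10:21292067-21304985 on the plus strand of Mmul_10, and its exons overlap an antisense locus, LOC114670377, that was not analysed here.

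HGF, a mesenchymal factor that drives growth and movement of epithelial cells, was at 115, 76.3 and 80.1 CPM in PDGF replicates 1, 2 and 3 and at 56.1, 46.5 and 33.7 CPM in PDGFNO replicates 1, 2 and 3. The groups did not overlap, and replicate 1 was the highest library of each. HGF averaged 90.4 ± 21.2 CPM in PDGF and 45.4 ± 11.2 CPM in PDGFNO (SD, n = 3 each). HGF had a log2 fold change of 0.99 (SE 0.24, adjusted p = 0.023 in edgeR), with 1.03 in batch 1 and 0.96 in batch 2. The call was lost without PDGFNO replicate 2 (log2 fold change 1.01, edgeR adjusted p = 0.078) or PDGFNO replicate 3 (0.82, adjusted p = 0.079). HGF lies at chr3:124391416-124463729 on the plus strand of Mmul_10.

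FGF7 was at 53.5, 27.7 and 35.1 CPM in PDGF replicates 1, 2 and 3 and at 18.9, 12.7 and 15.4 CPM in PDGFNO replicates 1, 2 and 3. Again the groups did not overlap and replicate 1 was the highest library of each. FGF7 averaged 38.8 ± 13.3 CPM in PDGF and 15.7 ± 3.08 CPM in PDGFNO (SD, n = 3 each). Its log2 fold change was 1.31 (SE 0.27, adjusted p = 0.014 in edgeR), with 1.50 in batch 1 and 1.16 in batch 2. The call was lost without PDGFNO replicate 2 (log2 fold change 1.18, edgeR adjusted p = 0.061) or PDGFNO replicate 3 (1.30, adjusted p = 0.057). FGF7 lies at chr7:25850519-25918523 on the plus strand of Mmul_10.

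The sequences just before the annotated starts of LIF and FGF7, both of which rose, are shown to compare their upstream regions. Each holds 250 bases of the plus strand of Mmul_10, 5′ to 3′, placed by RefSeq gene starts at chr10:21291817-21292066 for LIF and chr7:25850269-25850518 for FGF7. Capitals mark matches to the hypoxia response core ACGTG on either strand.
LIF: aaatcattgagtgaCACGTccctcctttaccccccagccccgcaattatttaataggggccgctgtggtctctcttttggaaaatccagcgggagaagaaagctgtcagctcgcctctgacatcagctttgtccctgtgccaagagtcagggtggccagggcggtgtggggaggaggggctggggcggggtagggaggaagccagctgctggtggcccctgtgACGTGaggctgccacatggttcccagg
FGF7: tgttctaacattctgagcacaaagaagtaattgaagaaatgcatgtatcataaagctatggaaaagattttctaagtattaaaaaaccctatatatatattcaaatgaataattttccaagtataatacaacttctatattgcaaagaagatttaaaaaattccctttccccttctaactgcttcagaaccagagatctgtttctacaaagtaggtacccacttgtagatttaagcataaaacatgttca
The GC content of these windows was 60.0% for LIF and 29.2% for FGF7, against a median of 56.8% over 17362 upstream windows of the same length. Both strands were searched for 7 motifs. ACGTG matched the LIF window at 236 bases before the start (reverse strand) and at 27 bases before it (forward strand), and 18.1% of all windows held it. The LIF window held no other match, and that of FGF7 held none, to the AP-1 motif TGANTCA (5.07% of all windows), the cyclic AMP response element TGACGTCA (1.45%), the ETS motif CCGGAAGT (2.59%), the EGR motif GCGNGGGCG (8.42%), the STAT motif TTCNNNGAA (6.01%) or the TATA box TATAAA (10.5%). ACGTG and TGACGTCA share the letters ACGT, so their matches can overlap. These matches describe the letters and not bound sites.

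NRG1, a ligand of the ERBB receptors that somatic cells of the testis make, was at 2.70, 3.36 and 3.53 CPM in PDGF replicates 1, 2 and 3. In PDGFNO replicates 1, 2 and 3 it was at 7.71, 4.88 and 6.85 CPM. The groups did not overlap, but PDGFNO replicate 2 lay nearest to the PDGF libraries, and the counts were low, 40, 43 and 47 against 94, 51 and 70. NRG1 averaged 3.20 ± 0.439 CPM in PDGF and 6.48 ± 1.45 CPM in PDGFNO (SD, n = 3 each). This gave a log2 fold change of -1.02 (SE 0.27, adjusted p = 0.034 in edgeR), with -1.51 in batch 1 and -0.76 in batch 2. When a library was left out, the call was kept only without PDGFNO replicate 2. Without PDGF replicate 1, 2 or 3 the edgeR adjusted p was 0.085, 0.098 or 0.084, and without PDGFNO replicate 1, 2 or 3 it was 0.060, 0.037 or 0.11. NRG1 lies at chr8:31967813-33107858 on the plus strand of Mmul_10, where RefSeq lists 22 transcripts, and counts per gene do not tell its isoforms apart.

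GDNF was at 7.82, 9.77 and 8.63 CPM in PDGF replicates 1, 2 and 3 and at 15.3, 10.6 and 14.4 CPM in PDGFNO replicates 1, 2 and 3. Each PDGF library lay below each PDGFNO library, with PDGF replicate 2 and PDGFNO replicate 2 the closest. GDNF averaged 8.74 ± 0.976 CPM in PDGF and 13.5 ± 2.50 CPM in PDGFNO (SD, n = 3 each). The log2 fold change of -0.62 (SE 0.21, adjusted p = 0.078 in edgeR) missed the threshold. With the replicate number as a block it was -0.62 (SE 0.18, adjusted p = 0.0049 in edgeR) and passed. The log2 difference was -0.97 in batch 1 and -0.44 in batch 2. GDNF lies at chr6:37664534-37692642 on the minus strand of Mmul_10, and its exons overlap a locus on the other strand, LOC106998719, that was not analysed here.

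FGF2 was at 8.50, 9.92 and 11.1 CPM in PDGF replicates 1, 2 and 3 and at 5.91, 6.70 and 6.76 CPM in PDGFNO replicates 1, 2 and 3, and the groups did not overlap. FGF2 averaged 9.84 ± 1.31 CPM in PDGF and 6.45 ± 0.474 CPM in PDGFNO (SD, n = 3 each). The log2 fold change of 0.61 (SE 0.20, adjusted p = 0.075 in edgeR) missed the threshold, with 0.52 in batch 1 and 0.64 in batch 2. With the block it was 0.60 (SE 0.19, adjusted p = 0.0089 in edgeR), and with GC content and gene length corrected as well it was 0.34 (edgeR adjusted p = 0.13). FGF2 lies at chr5:120667310-120739431 on the plus strand of Mmul_10, and its exons overlap those of the antisense gene NUDT6. Whether counting used strand is not given in the sources used here, so reads in the overlap cannot be told apart. NUDT6 averaged 25.8 ± 8.40 CPM in PDGF and 20.3 ± 9.54 CPM in PDGFNO (SD, n = 3 each), with a log2 fold change of 0.35 (SE 0.35, adjusted p = 0.53 in edgeR).

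CSF1, a growth factor of macrophages that has also been tied to SSC renewal, was at 54.5, 76.3 and 73.6 CPM in PDGF replicates 1, 2 and 3 and at 67.5, 77.3 and 75.3 CPM in PDGFNO replicates 1, 2 and 3. The groups overlapped, and replicate 1 was the lowest library of each. CSF1 averaged 68.1 ± 11.9 CPM in PDGF and 73.4 ± 5.17 CPM in PDGFNO (SD, n = 3 each). CSF1 had a log2 fold change of -0.11 (SE 0.17, adjusted p = 0.69 in edgeR), a difference smaller than the spread between replicates, with -0.31 in batch 1 and -0.03 in batch 2. CSF1 lies at chr1:114205564-114228972 on the minus strand of Mmul_10.

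**Figure D2:**
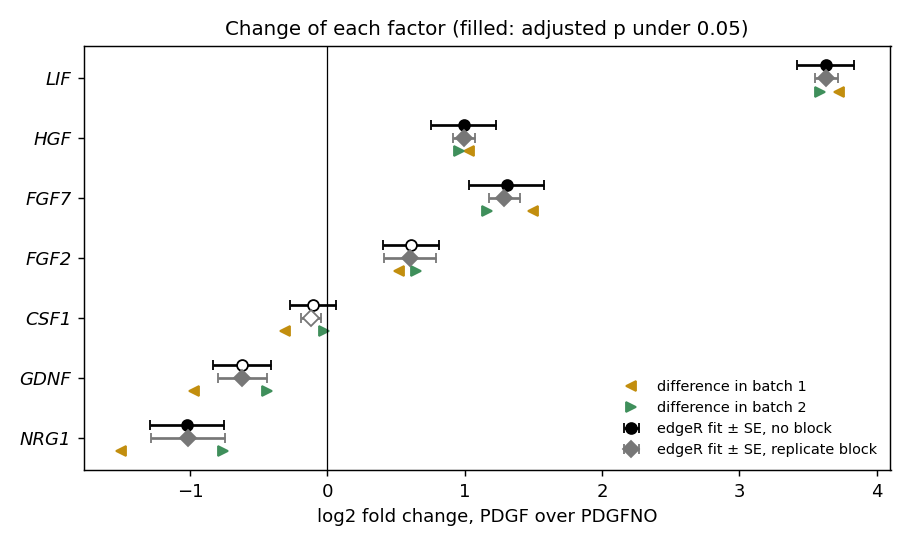
Log2 fold change of each factor, PDGF over PDGFNO (horizontal axis), from the edgeR fit without a block (circles) and with the replicate block (diamonds), with standard errors as bars, and the log2 difference within batch 1 and batch 2 (triangles). Filled circles and diamonds have an adjusted p under 0.05, and LIF lies apart from the other factors at 3.63.

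In the edgeR fit blocked by replicate number, 4 of the 7 factors were called higher and 2 lower, FGF2 and GDNF being added. In that fit 31.1% of all genes were called higher and 29.0% lower, or 60.1% in either direction.

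Levels of different factors were compared as CPM per kilobase of annotated exon (mean ± SD, n = 3). With PDGF, LIF was at 17.5 ± 2.28 and HGF at 14.5 ± 3.41 CPM per kilobase, with overlapping libraries. CSF1 at 8.27 ± 1.44 and FGF7 at 6.87 ± 2.36 CPM per kilobase came next and also overlapped. GDNF at 1.84 ± 0.205 and FGF2 at 1.46 ± 0.194 CPM per kilobase overlapped as well, and NRG1 was the lowest at 0.251 ± 0.0344. Without PDGF the order began with CSF1 at 8.91 ± 0.628 and HGF at 7.30 ± 1.80 CPM per kilobase, which overlapped. GDNF at 2.83 ± 0.524 and FGF7 at 2.78 ± 0.547 CPM per kilobase followed and overlapped. LIF at 1.42 ± 0.283, FGF2 at 0.959 ± 0.0703 and NRG1 at 0.509 ± 0.114 CPM per kilobase closed the order without overlap. LIF thus stood at position 5 of 7 in PDGFNO and at position 1 in PDGF, and NRG1 was at position 7 in both. The place of NRG1 depends on its length, 12747 bases, which pools the exons of all 22 listed transcripts. In CPM without length, NRG1 (4.88 to 7.71) and FGF2 (5.91 to 6.76) overlapped in PDGFNO.

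The transcripts most like each factor were found by Pearson's r of log2 CPM over the 6 libraries, among 10305 genes with a symbol. These values share the libraries, the difference between groups and that between batches, and are a description only. LIF was closest to NDRG1 (0.999), SH2B3 (0.999) and KCNMA1 (0.999), and 416 genes had an r of at least 0.95. NDRG1, known to respond to hypoxia, had a log2 fold change of 2.87, and SH2B3, an adaptor that restrains cytokine signaling, one of 2.05. HGF was closest to LIMS1 (0.999), PBK (0.998) and RAB22A (0.995), with 415 genes at 0.95 or above, and FGF7 to USP40 (0.996), RNPS1 (0.995) and MTMR6 (0.995), with 362. FGF2 was closest to SHANK1 (0.995), MFN2 (0.993) and ACAD9 (0.993), with 263, and CSF1 to PHF19 (0.994), SPHK1 (0.993) and EEF1AKMT4 (0.991), with 91. NRG1 was closest to NFKB1 (0.996), AGER (0.994) and TTN (0.992), with 60, and GDNF to ILKAP (0.995), PPFIA4 (0.987) and NSMCE1 (0.987), with 29. Fewer genes thus reached an r of 0.95 with GDNF or NRG1 than with LIF, HGF or FGF7. Low counts were 111 to 187 per library for GDNF, 40 to 94 for NRG1 and 69 to 148 for FGF2. The part of counting noise in these numbers of genes was not tested.

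The receptors of the factors were set beside the ligands. Of 14 primary receptor genes, 13 were in the table and 9 passed the filter, and KIT was not analysed here. IL6ST rose, FGFR2, FGFR3, MET and FGFR1 fell, and 4 did not pass the test, where 7.61% of all genes were higher and 10.7% lower. With the block, 2 were higher and 6 lower, where 31.1% and 29.0% of all genes were. The median log2 fold change of the 9 receptors was -0.36, and FGFR2 is among the 9 only through its PDGFNO libraries. That median is the value of ERBB3, whose counts were identical to those of PA2G4, and FGFR4 had the counts of ZNF346. The values of ERBB3 and FGFR4 thus cannot be assigned to the receptors alone, and ERBB3 is among the 6 lower with the block.

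For LIF, the signal-transducing chain IL6ST was at 86.6, 60.1 and 64.5 CPM in PDGF replicates 1, 2 and 3 and at 47.1, 41.9 and 40.4 CPM in PDGFNO replicates 1, 2 and 3, with no overlap. IL6ST had a log2 fold change of 0.71 (SE 0.18, adjusted p = 0.029 in edgeR). The call was lost in edgeR without PDGF replicate 1 (adjusted p = 0.051) or 3 (0.064) and without PDGFNO replicate 2 (0.11) or 3 (0.11). LIFR, the ligand-binding chain, averaged 6.69 ± 0.521 CPM in PDGF and 4.21 ± 0.858 CPM in PDGFNO (SD, n = 3 each). Its log2 fold change of 0.66 (SE 0.24, adjusted p = 0.092 in edgeR) missed the threshold, and with the block the adjusted p was 0.018 in edgeR. With GC content and gene length corrected as well, LIFR was at 0.38 (edgeR adjusted p = 0.17) and was not called.
Of 5 tested receptors of related ligands, edgeR called 1 higher and 2 lower, and 1 and 3 with the block. The shares of all genes were 7.61% and 10.7%, and 31.1% and 29.0% with the block. OSMR, which pairs with IL6ST to bind oncostatin M, was at 307, 258 and 257 CPM in PDGF and 89.0, 87.1 and 87.9 CPM in PDGFNO replicates 1, 2 and 3, and rose by a log2 fold change of 1.64 (SE 0.13, adjusted p = 2.4e-04 in edgeR). CNTFR, which binds ciliary neurotrophic factor together with LIFR and IL6ST, had 4, 12 and 7 counts in PDGF and 69, 63 and 74 in PDGFNO, a log2 fold change of -3.45 (SE 0.42, adjusted p = 0.0014 in edgeR). CNTFR passed the filter on counts only through the PDGFNO libraries, where it was high, and it was called as well with no filter beyond 1 count.

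For HGF, the receptor MET was at 4.18, 3.99 and 4.43 CPM in PDGF replicates 1, 2 and 3 and at 15.1, 12.5 and 9.79 CPM in PDGFNO replicates 1, 2 and 3. The groups did not overlap, and MET was 2.97-fold higher without PDGF. The log2 fold change was -1.57 (SE 0.23, adjusted p = 0.0032 in edgeR), with -1.84 in batch 1 and -1.41 in batch 2, and the call held in all 19 alternatives. Every PDGF library thus had a higher HGF and a lower MET level than every PDGFNO library.

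Of the FGF receptors, FGFR2, which binds FGF7 in its epithelial form, had 6, 4 and 10 counts in PDGF replicates 1, 2 and 3 and 57, 69 and 68 in PDGFNO replicates 1, 2 and 3. The groups did not overlap, and the level was 12.0-fold higher without PDGF, a log2 fold change of -3.58 (SE 0.39, adjusted p = 8.7e-04 in edgeR). FGFR2 passed the filter only through the PDGFNO libraries, where it was high. With no filter beyond 1 count the value was -3.55 (edgeR adjusted p = 2.9e-04), and it was not tested where each library had to hold at least 10 counts. Gene counts do not tell its epithelial and mesenchymal forms apart. FGFR3, also a marker of undifferentiated spermatogonia, was at 7.15, 16.3 and 17.8 CPM in PDGF and 25.9, 65.8 and 81.8 CPM in PDGFNO replicates 1, 2 and 3, with replicate 1 the lowest of each group. Its log2 fold change was -2.07 (SE 0.47, adjusted p = 0.019 in edgeR), and the call was lost without PDGF replicate 2 (edgeR adjusted p = 0.05004) or PDGFNO replicate 2 (0.066) or 3 (0.071).
FGFR1, the main FGF receptor of mesenchymal cells, averaged 26.2 ± 4.41 CPM in PDGF and 45.1 ± 6.91 CPM in PDGFNO (SD, n = 3 each). Its log2 fold change was -0.79 (SE 0.19, adjusted p = 0.025 in edgeR), and the call was lost without PDGF replicate 1 (edgeR adjusted p = 0.055) or 2 (0.10) or PDGFNO replicate 2 (0.099) or 3 (0.10). FGFR4 averaged 10.1 ± 0.219 CPM in PDGF and 9.96 ± 0.916 CPM in PDGFNO (SD, n = 3 each), with a log2 fold change of 0.01 (SE 0.18, adjusted p = 0.96 in edgeR) whose sign changed in 4 of 19 alternatives, and its counts were identical to those of ZNF346. The epithelial marker sum, given above, was lower in every PDGF library, as FGFR2 and MET were, and its part in these values was not tested.

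**Figure D3:**
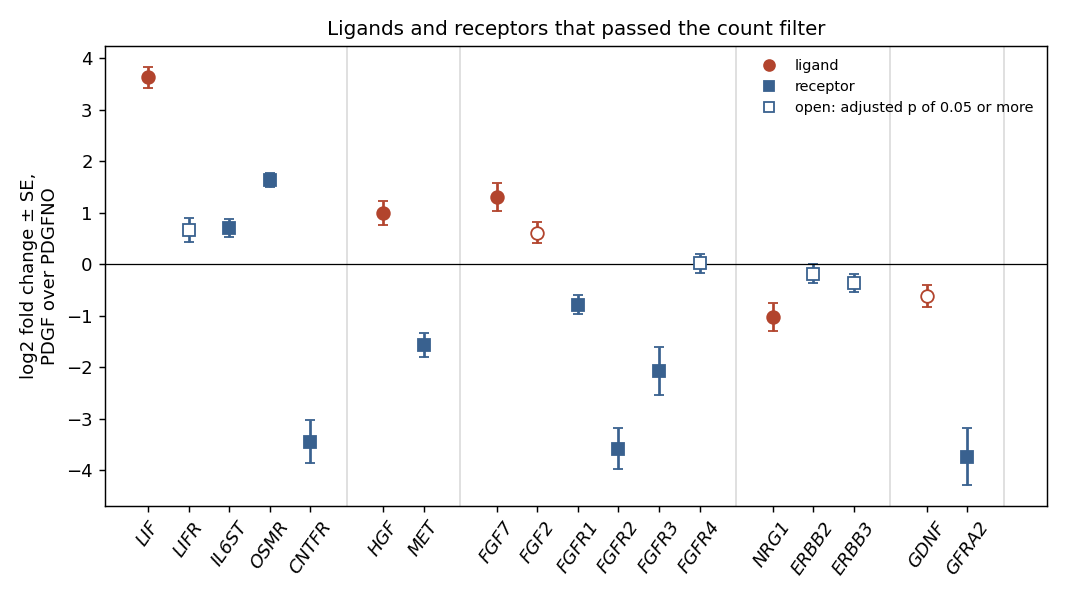
Log2 fold change ± standard error, PDGF over PDGFNO (vertical axis), of ligands (circles) and receptors (squares) that passed the count filter, side by side by signaling axis. Filled symbols have an adjusted p under 0.05, and HGF and FGF7 lie above 0 while MET, FGFR1, FGFR2 and FGFR3 lie below it.

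For NRG1, the receptor ERBB2 averaged 119 ± 21.7 CPM in PDGF and 135 ± 22.3 CPM in PDGFNO (SD, n = 3 each), with a log2 fold change of -0.18 (SE 0.19, adjusted p = 0.54 in edgeR). ERBB3 averaged 953 ± 108 CPM in PDGF and 1227 ± 243 CPM in PDGFNO (SD, n = 3 each), with a log2 fold change of -0.36 (SE 0.17, adjusted p = 0.18 in edgeR), but all 6 of its counts equalled those of PA2G4, and reads of these genes cannot be told apart. With the block the edgeR adjusted p was 0.0068 for ERBB2 and 1.5e-06 for ERBB3, and both were called lower. Once GC content and gene length were corrected in that fit, ERBB2 was at -0.09 (edgeR adjusted p = 0.18) and lost its call. ERBB3 kept its call there. For GDNF, the co-receptor GFRA1 had 3, 0 and 2 counts in PDGF and 9, 2 and 7 in PDGFNO, below the filter. Its ratio, PDGFNO over PDGF, was 4.49, with an exact Clopper-Pearson 95% interval of 1.61 to 15.5. With no filter beyond 1 count GFRA1 had a log2 fold change of -2.05 (adjusted p = 0.22 in edgeR) and was not called. RET, the signaling kinase, had 2, 0 and 0 counts in PDGF and 1, 2 and 0 in PDGFNO, a ratio, PDGFNO over PDGF, of 1.87 with an exact Clopper-Pearson 95% interval of 0.214 to 22.4. Intervals of this kind cover counting error only, and no difference in RET could be detected at this depth. GFRA2, the co-receptor of the related ligand neurturin, had 1, 1 and 2 counts in PDGF and 17, 17 and 13 in PDGFNO, a log2 fold change of -3.74 (SE 0.55, adjusted p = 0.0032 in edgeR). GFRA2, like FGFR2, passed the filter only through the PDGFNO libraries, and it was called as well with no filter beyond 1 count. For CSF1, the receptor CSF1R had 29 counts over the PDGF libraries and 25 over the PDGFNO libraries, a ratio, PDGFNO over PDGF, of 1.07 (exact 95% interval 0.604 to 1.90). ERBB4, another NRG1 receptor, had 4 counts over the PDGF libraries and 1 over the PDGFNO libraries.

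Other ligands of the same receptors, listed together with related FGF genes, were mostly scarce. Of 28 listed, 15 were in the table and 6 passed the filter, and edgeR called 0 higher and 1 lower, against 7.61% and 10.7% of all genes, with 1 and 1 at an unadjusted p under 0.05. DESeq2 and limma-voom each called 0 higher and 1 lower. The called gene was FGF12, an intracellular member of the FGF family, with a log2 fold change of -1.61 (SE 0.30, adjusted p = 0.0084 in edgeR). FGF12 is not a secreted ligand, so no secreted ligand of the list was called without the block. IL34, the other ligand of CSF1R, had a value of -0.37 (SE 0.20, adjusted p = 0.23 in edgeR), and IL6, which signals through IL6ST, one of 0.91 (SE 0.32, adjusted p = 0.087 in edgeR). With the block, IL6 was called higher and FGF12 and IL34 lower, where 31.1% and 29.0% of all genes were.

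Of 13 tested proteases and inhibitors that activate or shed these factors, 2 were higher, 2 were lower and 9 were not called, against 7.61% of all genes higher and 10.7% lower. With the block 7 were higher and 3 lower, against 31.1% and 29.0%. BACE2, among the 3 lower with the block, had counts identical to those of FAM3B, so its value cannot be assigned to the protease alone. MMP9, a gelatinase that can release KITLG from the cell surface, was at 307, 599 and 573 CPM in PDGF and 91.0, 150 and 149 CPM in PDGFNO replicates 1, 2 and 3, a log2 fold change of 1.92 (SE 0.30, adjusted p = 0.0039 in edgeR). SPINT2, an inhibitor of proteases that activate HGF, averaged 7.20 ± 1.76 CPM in PDGF and 18.7 ± 0.544 CPM in PDGFNO (SD, n = 3 each) and had a log2 fold change of -1.38 (SE 0.22, adjusted p = 0.0046 in edgeR). Both held in all 19 alternatives. MMP14, a membrane-bound matrix protease, had a log2 fold change of -0.80 (SE 0.16, adjusted p = 0.012 in edgeR) and lost its call without PDGFNO replicate 2 or 3 (edgeR adjusted p = 0.058 and 0.057). ADAM19, which can cleave NRG1, had one of 1.12 (SE 0.29, adjusted p = 0.033 in edgeR), and of the 6 fits with a library left out it kept its call only without PDGF replicate 1 (edgeR adjusted p of 0.050 to 0.11 in the others). Of 12 co-receptors and matrix holders, such as the syndecans and NCAM1, edgeR, DESeq2 and limma-voom called 0 in either direction, against 7.61% of all genes higher and 10.7% lower in edgeR, which had 3 higher and 1 lower of them at an unadjusted p under 0.05. With the block 5 were higher and 2 lower, against 31.1% and 29.0% of all genes.

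Genes known to respond to GDNF and FGF in SSCs were counted from a list of 21, of which 17 were in the table and 13 passed the filter. Among them 9 were higher and 0 lower in edgeR and likewise in DESeq2 and limma-voom, with 1 lower at an unadjusted p under 0.05 in edgeR. Of all genes, 7.61% were higher and 10.7% lower. The 13 response genes had a median log2 fold change of 0.93, against 0.02 over all genes. The list was chosen with earlier results of these data known, so its counts and median are a description only. Stroma markers had the largest marker sum, and which cells gave these values cannot be told from bulk libraries. Many of these genes respond to other receptor kinases too, PDGF receptors included. EGR2, an immediate early transcription factor, was at 21.2, 27.4 and 30.0 CPM in PDGF and 4.76, 5.84 and 3.62 CPM in PDGFNO replicates 1, 2 and 3, a log2 fold change of 2.46 (SE 0.24, adjusted p = 5.1e-04 in edgeR). CCND2, a D-type cyclin, had one of 1.38 (SE 0.17, adjusted p = 0.0015 in edgeR), although its counts were identical to those of TIGAR, and SPRY1, an inhibitor of receptor kinase signaling, one of 1.26 (SE 0.18, adjusted p = 0.0029 in edgeR). SPRY4 (1.13), SPRY2 (1.10), SPRED2 (1.06) and SPRED1 (0.67), inhibitors of the same cascade, the neurofilament gene NEFM (0.93) and the ETS factor ETV4 (0.77) were also higher by these log2 fold changes. ETV4 and SPRED1 lost their calls without PDGF replicate 2 or 3 or PDGFNO replicate 2 or 3 (edgeR adjusted p = 0.050 to 0.11 and 0.057 to 0.11), and SPRED2 without PDGF replicate 2 or 3 or PDGFNO replicate 3 (0.096 to 0.11).
The transcription factors ETV5, BCL6B and ID4, which act in SSC self-renewal, did not pass the test. ETV5 had a log2 fold change of 0.20 (SE 0.14, adjusted p = 0.38 in edgeR), BCL6B one of 0.18 (SE 0.56, adjusted p = 0.85 in edgeR) and ID4 one of -0.32 (SE 0.13, adjusted p = 0.12 in edgeR). With the block, 10 of the 13 genes were higher, ETV5 among them, and 1, ID4, was lower, against 31.1% and 29.0% of all genes. NANOS2 and TBXT were at 0 in the 6 libraries, and LHX1 had 2 counts in all.

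**Figure D4:**
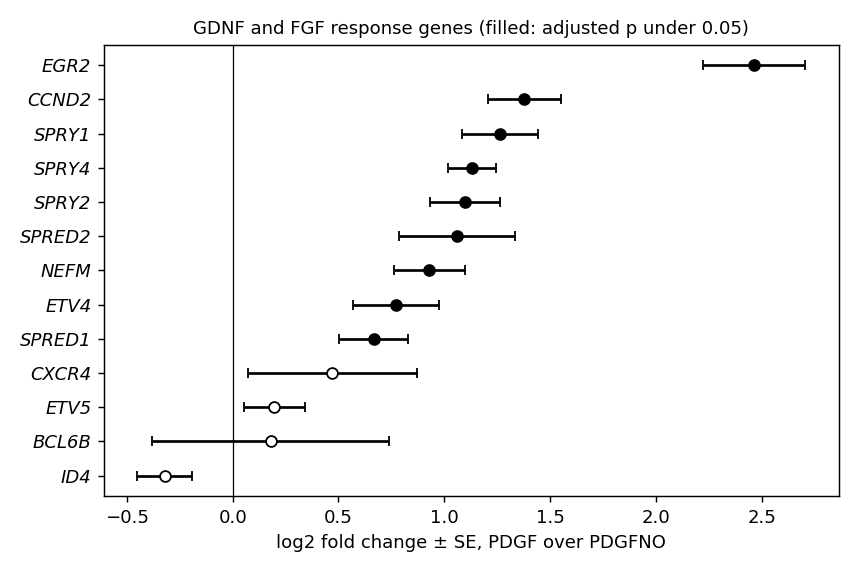
Log2 fold change ± standard error, PDGF over PDGFNO (horizontal axis), of the 13 GDNF and FGF response genes that passed the count filter. Filled points have an adjusted p under 0.05, and 12 of the 13 values are above 0, with ID4 below it.

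Of the LIF and STAT3 response genes, 6 of 12 were in the table and 4 passed the filter. Of these 2 were higher and 0 lower in edgeR, as in DESeq2 and limma-voom, against 7.61% and 10.7% of all genes in edgeR, and 0 were lower at an unadjusted p under 0.05. The 4 tested were JUNB, FOS, MYC and KLF4. SOCS3, SOCS2, BCL3, PIM1, PIM3 and CISH were not analysed here, and TFCP2L1 and GBX2 were below the filter. The counts do not cover those genes, and whether the rises were responses to LIF was not tested. FOS had a log2 fold change of 1.25 (SE 0.23, adjusted p = 0.0088 in edgeR). MYC had one of 0.51 (SE 0.15, adjusted p = 0.047 in edgeR), and with a library left out it kept its call only without PDGF replicate 1 (edgeR adjusted p of 0.078 to 0.16 in the others). STAT3 itself, the main transcription factor below LIF, averaged 166 ± 5.33 CPM in PDGF and 167 ± 6.79 CPM in PDGFNO (SD, n = 3 each), with a log2 fold change of -0.02 (SE 0.12, adjusted p = 0.94 in edgeR).

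Of 33 adaptors and kinases below the receptors, 4 were higher and 2 lower, against 7.61% and 10.7% of all genes. With the block 16 were higher and 9 lower, against 31.1% and 29.0%. The shares of this list without the block, and its lower share with it, were near those of all genes. CBL, a ubiquitin ligase that turns over activated receptors, averaged 50.9 ± 3.90 CPM in PDGF and 24.9 ± 3.30 CPM in PDGFNO (SD, n = 3 each), a log2 fold change of 1.03 (SE 0.16, adjusted p = 0.0043 in edgeR). MAP2K1, a kinase of the ERK cascade, had a log2 fold change of 0.76 (SE 0.12, adjusted p = 0.0048 in edgeR). PTPN11, the phosphatase SHP2, had one of 0.53 (SE 0.13, adjusted p = 0.027 in edgeR) and kept its call only without PDGFNO replicate 1 among the 6 fits with a library left out (edgeR adjusted p of 0.051 to 0.11 in the others). JAK1, the kinase bound to IL6ST, had one of -0.46 (SE 0.13, adjusted p = 0.040 in edgeR) and kept its call only without PDGF replicate 1 (0.058 to 0.15 in the others). STAT5A had one of -0.98 (SE 0.26, adjusted p = 0.033 in edgeR) and lost its call without PDGF replicate 1 or 3 or PDGFNO replicate 2 or 3 (0.077 to 0.12).

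Among 8 other tested secreted factors of the testis niche, VEGFA, BMP4 and CXCL12 were higher and IGF1 was lower, against 7.61% and 10.7% of all genes. VEGFA, an angiogenic factor, had a log2 fold change of 3.02, below that of LIF. BMP4, a factor that can act on spermatogonia, had one of 0.78 (SE 0.22, adjusted p = 0.041 in edgeR), and with a library left out it kept its call only without PDGFNO replicate 3 (0.072 to 0.13 in the others). CXCL12, the ligand of CXCR4 on SSCs, had one of 0.59 (SE 0.15, adjusted p = 0.033 in edgeR) and lost its call with any library left out (0.051 to 0.12). IGF1, a growth factor of somatic cells, was at 2.90, 3.91 and 3.83 CPM in PDGF and 15.2, 8.33 and 7.44 CPM in PDGFNO replicates 1, 2 and 3, with no overlap and a log2 fold change of -1.55 (SE 0.32, adjusted p = 0.014 in edgeR).

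**Figure D5:**
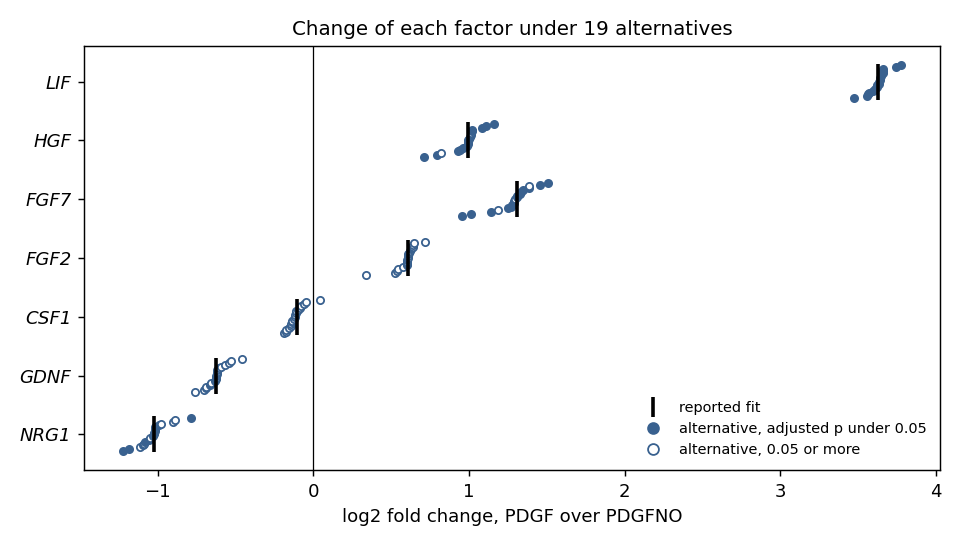
Log2 fold change of each factor (horizontal axis) in the reported fit (vertical bars) and in 19 alternatives of normalization, filter, tool, batch handling and libraries used (points, filled where the adjusted p is under 0.05). The LIF points span 3.47 to 3.78 and are all filled, and CSF1 is the factor with a point on the other side of 0.

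Over these 19 alternatives LIF kept its call in each, with log2 fold changes of 3.47 to 3.78. HGF (0.71 to 1.16) and FGF7 (0.96 to 1.51) kept theirs in 16 each, and NRG1 (-1.22 to -0.78) in 13. FGF2 (0.34 to 0.72) and GDNF (-0.76 to -0.46) kept their direction in all 19 and passed the threshold in 4 each. With replicates 2 and 3 of each group summed and no batch term, LIF alone was called, at an edgeR adjusted p of 0.0062, against 0.072 for FGF7, 0.12 for HGF and 0.14 for NRG1. Once batch was added to that fit, FGF7, HGF and NRG1 were called again, together with FGF2 and GDNF. Of the genes of the lists other than the receptors that are named above as called, 10 kept their call in each alternative that could be run, and the others lost it with the summed replicates, among them CBL, FGF12, SPRY2, FOS and IGF1.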

How the data were processed

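Libraries were grouped by their titles. Members and gene lists were chosen with earlier results of these data known. The authors deposited expected counts per gene without normalization; 34 values in 13 genes are not whole, and values were rounded. The submitters' processing notes name fastp, HISAT2 2.1.0, SAMtools, featureCounts 2.0.1 and the builds Mmul_10 and Mmul_8.0.1, without saying which build gave these counts. Of 2686 LOC names, 2682 occur in RefSeq release 103 of Mmul_10, which supplied positions, exon lengths and upstream sequence. By name, 17389 of 17795 genes matched.

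Counts were TMM-scaled, filtered with filterByExpr and tested with edgeR 4.0.16 (R 4.3.3; quasi-likelihood, no block), with adjustment over 11539 genes. SE is the log2 fold change in absolute value over the root of F. Differences within batches used 0.5 added counts. Totals of 10593805 to 14102697 counts set the precision.

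By the labels, libraries with one number are of one batch. Deviations from group means correlated for same-numbered libraries with r = 0.73, 0.35 and 0.37, and those of replicates 2 and 3 across numbers with r = 0.36 and 0.39, so the pairing is as much by batch. Replicates 2 and 3 differed beyond sampling noise (chi-square per degree of freedom 3.43 and 3.66) and were kept apart. Alternatives were other scalings, filters and thresholds, DESeq2 1.42.0, limma-voom (limma 3.58.1), block, batch, batch 2 alone, GC and length correction (97.4% of tested genes had both), summed replicates and each library left out. Steps were tested on simulated data.

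Named genes are the 8 factors, their receptors, up to 3 called genes per direction in each other list and the 3 most correlated genes for each factor with an average log2 CPM of at least 1. NUDT6, IL34, IL6, STAT3, NANOS2, TBXT, LHX1, ETV5, BCL6B, ID4, PTPN11, BACE2 and the other called response genes were chosen after their values were seen. A called gene and an upstream sequence are not reported here. Figures used matplotlib 3.10.9.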

Additional observations from a re-analysis of the deposited data

How the results depend on the processing

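For the niche factors, 112 of 133 values kept their direction and side of the threshold, 12 lost their call, 8 gained one and 1 reversed (CSF1, 0.040 without PDGF replicate 1; it lay between -0.19 and 0.040 with a library left out). The 3 factors called higher became 1 with replicates 2 and 3 summed and at a threshold of 0.01, and 1 to 3 with a library left out. They became 4 with the replicate block, with batch as a factor, in batch 2 alone, with replicates summed and batch, and at a threshold of 0.1. The 1 called lower became 2 with the replicate block, with batch as a factor, with the block and GC and length correction, with replicates summed and batch, and at a threshold of 0.1. It became 0 with replicates summed and at 0.01, and 0 to 1 with a library left out. The 1 receptor called higher became 0 with upper quartile scaling, with replicates summed and at 0.01, became 2 with the block, with batch, in batch 2 alone, with replicates summed and batch, and at 0.1, and was 0 to 1 with a library left out. The 4 called lower became 6 with the block, with batch, in batch 2 alone and with replicates summed and batch, 5 with the block and GC and length correction, 3 with at least 10 counts in every library (where FGFR2 was not tested), 2 with replicates summed and at 0.01, and 2 to 5 with a library left out. The cause was not tested. The block changed no other call of a niche factor than those of FGF2 and GDNF.

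Over all genes, 878 were higher and 1230 lower, against 3587 and 3347 with the block, 3604 and 3387 with batch, 3041 and 3085 in batch 2 alone, 3128 and 3305 with the block and GC and length correction, 3669 and 3420 with replicates summed and batch, 206 and 487 with replicates summed, and 435 to 1284 and 726 to 1726 with a library left out. Counts of 40 to 94 limit NRG1. RET, GFRA1, CSF1R and ERBB4 were below the filter of the reported fit, and none was called in edgeR with no filter beyond 1 count.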
